A study of Mus musculus with 16 samples.

Results

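A set of 31 cell adhesion genes was followed across the 4 groups of a bone marrow chimera experiment. They were picked by symbol from the 24411 genes of the count table, and all 31 had a row there. By role they are 7 integrin alpha subunits, 5 integrin beta subunits, 7 counter-receptors and other surface adhesion proteins, 5 cytoplasmic linkers, 2 adhesion G protein-coupled receptors, 3 matrix proteins and proteoglycans, and the CD47 and SIRPA pair. The chimeras were C57BL/6J wild-type mice, irradiated with 950 cGy and reconstituted with congenic wild-type bone marrow that carries the CD45.1 allele. Engrafted cells (CD45.1) and host microglia (CD45.2) were sorted from the perfused brain of each of 8 mice, 10000 cells a sample, by CD11b, low CD45 of the respective allele and absence of Ly6C/G. Mice 1 to 4 had received LPS, a bacterial endotoxin, at 2.5 mg/kg into the peritoneum 12 h earlier, and mice 5 to 8 were unchallenged, so each of the 4 groups holds 4 libraries. Graft and host libraries of a mouse come from 1 brain. All host microglia had been irradiated and the engrafted cells had not, so origin and irradiation cannot be told apart. Recipients were 6 weeks old at transplantation and were given LPS 9 months later, while the labels name 3.5 or 9 months to the sort without a time for each library.

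Adhesion of myeloid cells starts with integrins, dimers of an alpha and a beta chain that bind matrix or receptors on neighboring cells. Talin and kindlin bind the beta tail and switch the dimer to its active state, and vinculin and the ERM proteins tie membrane proteins to actin. In leukocytes, the β2 integrins bind ICAM-1 and complement fragments, and the α4 integrins bind VCAM-1 and are known for the entry of blood cells into the inflamed brain. Microglia are known for high CD11b (Itgam) and for the αv and β5 chains, which take part in activation of TGFβ and in uptake of apoptotic cells.

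Between 395283 and 1203597 reads per library fell on genes, and 3 reads, taken here as the floor of detection, were worth 2.39 to 8.41 CPM (read counts scaled to the size of the library). Levels are CPM from the deposited counts with TMM library sizes, each followed by SD over 4 libraries, and values per library are listed by mouse number (5 to 8 unchallenged, 1 to 4 LPS). The counts come from the 3′ end of RNA, so levels are compared between groups for a gene and never between genes. The 5 myeloid identity genes (Csf1r, Aif1, Ptprc, Spi1, Fcer1g) summed to 5691 to 9699 CPM in every library. The 6 microglia identity genes summed to 1994 to 2558 CPM in unchallenged engrafted cells against 6528 to 8254 in unchallenged host microglia. A list of 5 monocyte markers moved with engraftment and LPS. It summed to 177 to 309.6 CPM in unchallenged engrafted cells, 897 to 1912 after LPS, and at most 25.5 in any host library. Ly6c2 was 24.2, 35.4, 39.3 and 21.6 CPM in unchallenged and 867, 871, 714 and 412 CPM in challenged engrafted cells, although the sort excluded Ly6C/G-positive cells, and Ccr2 was 84.6, 189, 121 and 227 against 40.3, 31.7, 62.5 and 50.5 CPM. In challenged engrafted cells 4 of these 5 markers rose and Ccr2 fell. The part of monocytes in the values of engrafted cells was not tested. Neutrophil markers were split. The list of 7 summed to 135 to 588 CPM in unchallenged and 76.9 to 258 CPM in challenged engrafted cells, against 146 to 274 and 51.8 to 90.5 CPM in host microglia. Its granule genes were mostly in engrafted cells, where Ngp was 68.5, 101, 206 and 10.8 CPM without LPS and 129, 1.22, 92.4 and 98.1 CPM with it. Camp was 33.2, 28.7, 152 and 23.4 CPM there without LPS and 28.0, 0, 10.4 and 36.4 CPM with it, and Mmp8 was at most 1.01 CPM without LPS and 41.4, 24.4, 24.7 and 16.8 CPM with it. No host library held over 1.39 CPM of Ngp or 0.971 CPM of Camp, and Mmp8 was at 0 in all of them. Csf3r, of the same list, was 79.6, 94.4, 136 and 93.6 CPM in unchallenged engrafted cells and 146, 189, 178 and 273 CPM in unchallenged host microglia. The part of neutrophils in the values of engrafted cells was not tested. The platelet markers went in both directions. Pf4 was 283, 374, 395 and 403 CPM in unchallenged engrafted cells and 4.39, 3.88, 7.18 and 4.08 CPM in host microglia, whereas Gp9 was 8.06, 6.74, 18.02 and 16.2 CPM in the former and 169.8, 127, 149 and 145 CPM in the latter. Endothelial markers summed to at most 25.3 CPM, and T and NK cell markers to at most 22.4 CPM. Neuron markers summed to 4.17 to 127 CPM, the highest in unchallenged host mouse 5. Astrocyte markers summed to 146 to 264 CPM in host and 8.95 to 24.7 CPM in engrafted libraries. Slc1a3 of that list gave 143 to 230 CPM in host libraries, and Gfap was at most 1.46 CPM. Oligodendrocyte markers summed to 84.7 to 218 CPM. The part of these brain cells in the values was not tested. B cell markers summed to 15.9 to 74.2 CPM, of which Cd79b, found in every library, gave 14.0 to 72.5 CPM, Ms4a1 had reads in 3 engrafted libraries, and Cd79a and Pax5 were at 0 throughout. Immediate early genes, which dissociation can induce, summed to 14954 to 17958 CPM in unchallenged engrafted cells and 11839 to 16002 CPM in unchallenged host microglia. After LPS they summed to 10967 to 20532.5 CPM in engrafted cells and 9655 to 12918 CPM in host microglia. The part of dissociation in the comparisons was not tested. Red blood cell genes were highest in mice 4 and 8 and reached 6128 CPM. In sorted bulk RNA a change in the mix of cells and a change in RNA per cell cannot be told apart.

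A gene passed at an adjusted p below 0.05 (quasi-likelihood test of edgeR, Benjamini-Hochberg over all genes tested). The 31 genes were chosen with earlier results of these data known. Shares over all genes stand beside their counts as description, without a test of the set. Without LPS, 25 of the 31 genes had enough reads for the test of engrafted against host cells. Of these, 8 were higher in engrafted cells and 10 were lower, 72% of those tested, whereas 27.3% of all 8042 genes tested passed (13.6% higher, 13.7% lower). Over 2-fold were 8 and 2 of them, against 6.25 and 4.73% of all genes. After LPS, 11 were higher and 5 lower of 29, against 17.1% of 7843 genes (9.52% higher, 7.62% lower), and 9 and 2 were over 2-fold (6.73 and 4.34% of all genes). LPS raised 14 and lowered 8 of 26 in engrafted cells, where 38.7% of all genes passed (19.4% up, 19.3% down), and 13 and 6 changed over 2-fold (10.2 and 11.3%). In host microglia it raised 8 and lowered 6 of 23, where 39.7% of all genes passed (19.2% up, 20.5% down), and 5 and 4 changed over 2-fold (7.66 and 10.4%). The LPS response of engrafted cells minus that of host microglia passed for 4 of 29, all upward and over 2-fold, against 5.88% of 8847 genes (2.97% up, 2.90% down, and 2.45 and 2.50% over 2-fold). Median log2 differences of the adhesion genes tested were -0.01 without LPS and 0.18 after LPS between populations, 0.87 for LPS in engrafted cells and -0.08 for LPS in host microglia, each beside a median between -0.01 and 0.02 over all genes. In all, 27 genes passed at least 1 comparison, 23 of them with a change over 2-fold. Talin-1 (Tln1) and Itga5 passed none, and Alcam and Vcl were too low to be tested in any. Scaling by library totals moved the median of all genes after LPS from -0.01 to -0.16 (engrafted minus host) and the share of higher genes among those passing from 55.5 to 40.2%, and the adhesion genes then split 10 higher and 5 lower.

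**Figure D1:**
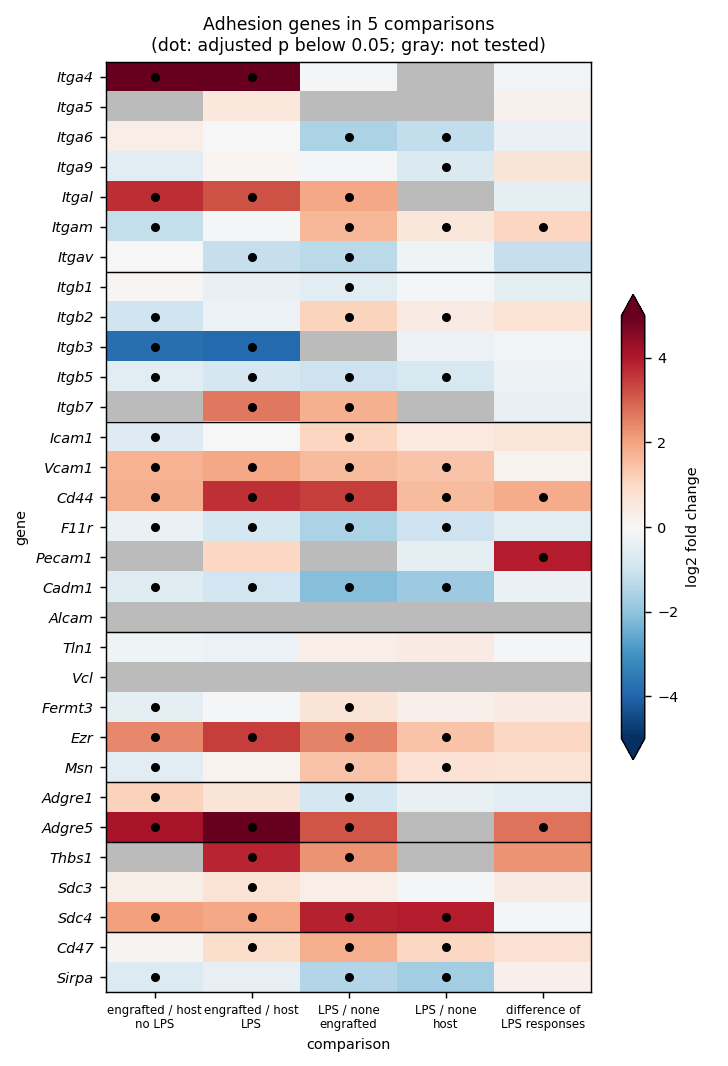
Log2 fold changes (color scale) of the 31 adhesion genes, ordered by role, in 5 comparisons. Black dots are genes with an adjusted p below 0.05 and gray cells were not tested. Itga4, Itgal, Cd44, Vcam1, Ezr, Adgre5 and Sdc4 were higher in engrafted cells both without and after LPS, and Itgb3, Itgb5, F11r and Cadm1 were lower in both.

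Itga4, the α4 chain that binds VCAM-1 and fibronectin (chromosome 2, 79095583 to 79173271 in NCBI37), separated the populations most among the alpha chains. Its levels were 127, 139.9, 121 and 108 CPM in unchallenged engrafted cells and 5.86, 1.94, 2.39 and 4.08 CPM in the host microglia of the same mice. After LPS they were 132, 97.6, 169 and 81.3 CPM in engrafted cells and 2.29, 5.98, 2.41 and 2.78 CPM in host microglia. Every engrafted library lay above every host library, with log2 fold change 5.23, SE 0.26, adjusted p = 2.77e-14 without LPS and log2 fold change 5.09, SE 0.35, adjusted p = 8.14e-09 after it. Host libraries held 2 to 6 reads of Itga4, near the floor of detection. Within engrafted cells Itga4 did not pass the LPS test (-0.06 log2 units, SE 0.20, adjusted p = 0.83). The monocyte list summed higher in every engrafted than in any host library as well, the neutrophil genes Ngp and Camp were above every host library in all engrafted ones except LPS mouse 2, and their part in the Itga4, Itgal, Itgb7 and Cd44 values was not tested.

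Itgal, the CD11a chain of LFA-1, which binds ICAM-1 (chromosome 7, 134439774 to 134478651), was 21.2, 33.7, 29.5 and 39.6 CPM in unchallenged engrafted cells and 139.8, 134, 92.4 and 107 CPM after LPS. Host microglia held 0, 1.94, 1.60 and 5.11 CPM without and 12.6, 8.97, 9.66 and 22.3 CPM with LPS. The engrafted libraries were the higher ones in both states, by 3.70 log2 units, SE 0.45, adjusted p = 4.21e-07 without LPS and 3.20 log2 units, SE 0.27, adjusted p = 1.36e-07 after it. On leaving out 1 library the former ranged from 3.43 to 4.40 log2 units, the largest without host mouse 8. LPS raised Itgal in engrafted cells (log2 fold change 1.94, SE 0.23, adjusted p = 1.60e-06). In host microglia the gene was too low for the model, and the 4 LPS libraries all lay above the 4 unchallenged ones (exact permutation test, 2-sided, p = 0.0286, the smallest that 4 against 4 allow). The difference between both responses did not pass (-0.50 log2 units, SE 0.55, adjusted p = 0.679).

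Itgam encodes CD11b, the protein by which both populations were sorted (chromosome 7, 135206154 to 135262005). Unchallenged engrafted cells held 277, 261, 324 and 331 CPM and unchallenged host microglia 615, 708, 745 and 755 CPM, without overlap. After LPS engrafted cells reached 1145, 975, 865 and 889 CPM and host microglia 1045, 999, 1099.9 and 1085 CPM, and these ranges overlapped. Engrafted cells were thus lower without LPS (log2 fold change -1.19, SE 0.12, adjusted p = 3.04e-08), and the difference after LPS was -0.10 log2 units and did not pass (SE 0.18, adjusted p = 0.767). LPS raised Itgam by 1.66 on the log2 scale in engrafted cells (adjusted p = 4.63e-07) and by 0.57 in host microglia (adjusted p = 0.00169). The engrafted response was the larger one, by 1.08 log2 units, SE 0.21, adjusted p = 0.00159.

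Its partner chain Itgb2 (CD18, chromosome 10, 76993093 to 77028419) showed a like order of levels. Engrafted cells held 239.7, 285, 283 and 277 CPM without LPS and 690.1, 644, 593 and 502 CPM with it. Host microglia held 441, 563, 614 and 630.1 CPM and 603, 774, 718 and 940.4 CPM. The unchallenged engrafted libraries were the lowest 4 of the 16 (log2 fold change -0.998, SE 0.13, adjusted p = 1.45e-06 against host), and after LPS the populations overlapped (-0.30 log2 units, SE 0.20, adjusted p = 0.344). LPS raised Itgb2 in engrafted cells (log2 fold change 1.13, SE 0.17, adjusted p = 3.67e-05) and in host microglia (log2 fold change 0.42, SE 0.16, adjusted p = 0.0383). The host call was lost without host LPS mouse 4 or without host mouse 5, 6 or 7 (adjusted p 0.0555 to 0.137) and with at least 10 reads demanded in every library (adjusted p = 0.0505). The difference of responses was 0.69 log2 units, SE 0.23, adjusted p = 0.0808, and it passed with DESeq2 (0.74, adjusted p = 0.0185).

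Itgav, the αv chain (chromosome 2, 83564554 to 83647074), was 41.3, 62.4, 42.6 and 48.6 CPM in unchallenged engrafted cells and 24.6, 18.3, 22.1 and 5.61 CPM after LPS. Host microglia had 39.5, 58.3, 71.0 and 27.6 CPM and 50.5, 38.9, 44.7 and 40.3 CPM. The populations overlapped without LPS (-0.01 log2 units, SE 0.24, adjusted p = 0.99), and after LPS the engrafted libraries were all the lower ones (log2 fold change -1.16, SE 0.28, adjusted p = 0.00792). LPS lowered Itgav in engrafted cells (log2 fold change -1.37, SE 0.30, adjusted p = 0.00118), and in host microglia the change was -0.21 log2 units, SE 0.24, adjusted p = 0.519. The difference of these responses did not pass without a term for the mouse (-1.17 log2 units, SE 0.40, adjusted p = 0.0847) and passed with it (-1.27, SE 0.37, adjusted p = 0.0322).

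Itga6, the laminin-binding α6 chain (chromosome 2, 71624996 to 71696484), fell with LPS in both populations. It went from 271, 261, 267 and 254 to 62.6, 104, 130.1 and 64.5 CPM in engrafted cells and from 231, 220.5, 231 and 192 to 78.0, 44.9, 121 and 136 CPM in host microglia. No challenged library reached an unchallenged one of its population. The changes were -1.56 log2 units, SE 0.21, adjusted p = 6.22e-06 and -1.23 log2 units, SE 0.23, adjusted p = 1.51e-04, and the populations did not differ past the threshold in either state. Itga9, which pairs with β1, fell with LPS in host microglia from 65.4 ± 11.4 to 38.8 ± 10.4 CPM (log2 fold change -0.74, SE 0.21, adjusted p = 0.00875) and was 42.8 ± 11.8 and 39.1 ± 15.3 CPM in engrafted cells. The engrafted change was -0.10 log2 units, SE 0.28, adjusted p = 0.813. Its difference from the host change did not pass (0.64 log2 units, SE 0.36, adjusted p = 0.34). Itga5, the fibronectin receptor chain, was 5.05 ± 4.28 CPM in unchallenged and 19.4 ± 7.004 CPM in challenged engrafted cells, and 4.02 ± 1.33 and 13.7 ± 3.39 CPM in host microglia. It had too few reads for the LPS model, and the challenged libraries lay above the unchallenged ones in both populations (exact permutation test, 2-sided, p = 0.0286 in each, the smallest possible).

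Itgb3, the β3 chain that pairs with αv and binds vitronectin (chromosome 11, 104469314 to 104531785), was the higher in host microglia. These microglia held 65.9, 62.2, 82.9 and 78.6 CPM without LPS and 48.2, 70.8, 66.4 and 54.3 CPM with it. Engrafted cells held 7.05, 3.37, 1.64 and 7.20 and 2.24, 6.10, 3.90 and 2.80 CPM, near the floor of detection. All 8 host libraries exceeded all 8 engrafted ones, with log2 fold change -3.75, SE 0.30, adjusted p = 2.53e-10 without LPS and log2 fold change -3.89, SE 0.34, adjusted p = 1.83e-07 after it. Host microglia did not pass the LPS test (-0.29 log2 units, SE 0.18, adjusted p = 0.23).

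Itgb7, which pairs with α4 and binds MAdCAM-1 (chromosome 15, 102046426 to 102062366), was 1.01, 15.2, 11.5 and 30.6 CPM in unchallenged engrafted cells and 60.4, 40.3, 39.0 and 44.9 CPM after LPS. Host microglia held 0, 3.88, 0 and 2.04 and 4.59, 6.98, 4.83 and 13.9 CPM. LPS raised it in engrafted cells (log2 fold change 1.78, SE 0.45, adjusted p = 0.00396). Unchallenged mouse 8 was the nearest to the LPS range. On leaving out 1 library the change ranged from 1.24 to 2.47, the largest without that mouse. After LPS engrafted cells were above host microglia (log2 fold change 2.65, SE 0.34, adjusted p = 1.79e-05). Without LPS the gene was not tested across genes and the groups overlapped (exact permutation test, 2-sided, not paired by mouse, p = 0.0857).

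Itgb5, the β5 chain that pairs with αv alone (chromosome 16, 33829751 to 33949424), was 527, 464, 634 and 603 CPM in unchallenged engrafted cells and 211, 261, 306 and 334 CPM after LPS. Host microglia had 738, 927, 788 and 984 and 403, 314, 630.2 and 652 CPM. LPS lowered it in engrafted cells (log2 fold change -1.04, SE 0.19, adjusted p = 2.64e-04) and in host microglia (log2 fold change -0.80, SE 0.19, adjusted p = 0.00223). Engrafted cells were lower than host microglia without LPS (log2 fold change -0.57, SE 0.13, adjusted p = 0.00107) and after it (log2 fold change -0.83, SE 0.25, adjusted p = 0.0305), and the latter call was lost without engrafted mouse 1, 2 or 3 or host mouse 3 or 4 (adjusted p 0.0561 to 0.114). Itgb1, the common β1 chain, had group means of 132 to 185 CPM. Among its comparisons it passed the LPS test in engrafted cells alone, where it fell (log2 fold change -0.53, SE 0.18, adjusted p = 0.0273), a call that was lost without engrafted LPS mouse 1 or 2 or unchallenged mouse 7 or 8 (adjusted p 0.0591 to 0.119) or with no filter for low counts (adjusted p = 0.0711), and the difference from the host response was -0.45 log2 units, SE 0.24, adjusted p = 0.309.

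**Figure D2:**
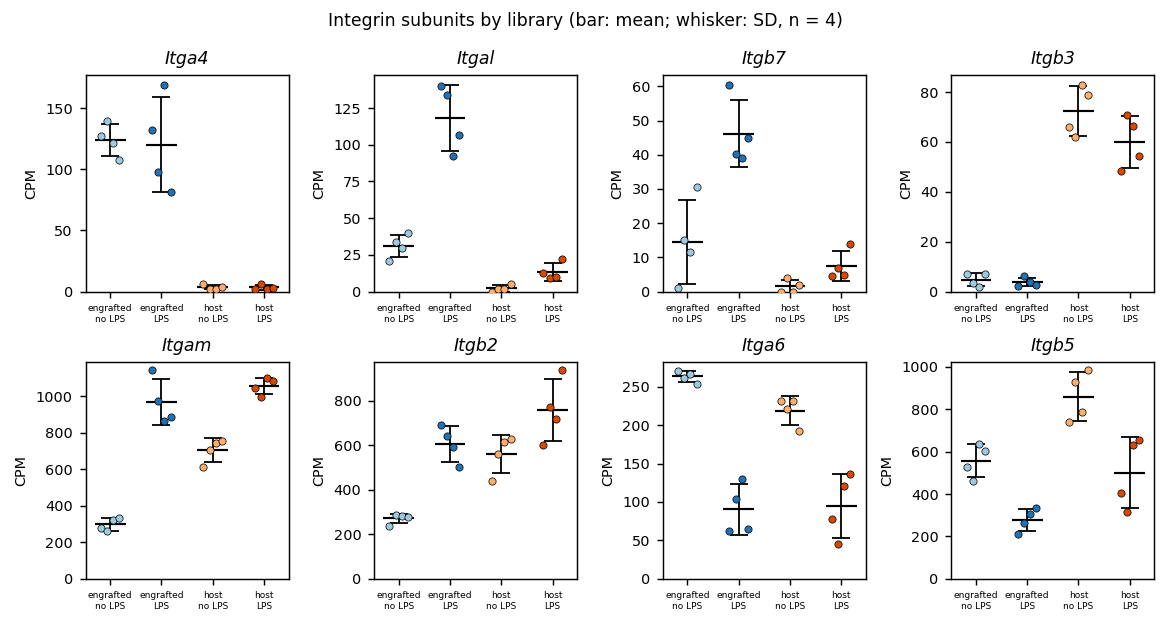
CPM (linear axis from 0) of 8 integrin subunits in each of the 16 libraries, 4 per group, with the mean and SD. Itga4 and Itgal were higher in engrafted cells in both states, Itgb7 in engrafted cells after LPS, and Itgb3 in host microglia. Itgam and Itgb2 were lowest in unchallenged engrafted cells, and Itga6 and Itgb5 were lower after LPS in both populations.

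Of the counter-receptors, Vcam1, the ligand of α4β1 (chromosome 3, 115812938 to 115832606), was higher in engrafted cells and rose with LPS in both populations. It was 147, 118, 131 and 151 CPM in unchallenged engrafted cells and 494, 456, 420.2 and 331 CPM after LPS. Host microglia held 26.4, 49.5, 56.6 and 33.7 and 139, 141, 96.6 and 77.9 CPM. The engrafted libraries exceeded host ones without overlap in both states (1.73 log2 units, SE 0.18, adjusted p = 2.53e-08 without LPS and 1.93 log2 units, SE 0.22, adjusted p = 4.47e-06 after it). LPS added 1.60 log2 units, SE 0.18, adjusted p = 1.03e-06 in engrafted cells and 1.41 log2 units, SE 0.23, adjusted p = 3.85e-05 in host microglia, responses that differed by 0.18 log2 units (SE 0.30) and did not pass.

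Icam1, the ligand of LFA-1 and CD11b/CD18 (chromosome 9, 20820404 to 20833240), was 182, 158, 172 and 117 CPM in unchallenged engrafted cells and 397, 547, 291 and 135 CPM after LPS. Host microglia held 252, 239, 258 and 275 and 376, 562, 239 and 256 CPM. Challenged mouse 4 lay within the unchallenged range of its population, in graft and host alike, as did host mouse 3. LPS raised Icam1 in engrafted cells (log2 fold change 1.09, SE 0.28, adjusted p = 0.00432), while the host change was 0.48 log2 units, SE 0.20, adjusted p = 0.065 and passed without host LPS mouse 3 (0.64, adjusted p = 0.0132) or mouse 4 (0.61, adjusted p = 0.0162) and with no filter for low counts (0.50, adjusted p = 0.0103). These responses did not differ past the threshold (0.60 log2 units, SE 0.38, adjusted p = 0.419). Unchallenged engrafted cells were lower than host microglia (log2 fold change -0.64, SE 0.15, adjusted p = 0.00149), a call that was lost with all 16 libraries in 1 fit (adjusted p = 0.101).

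Cd44, the hyaluronan receptor (chromosome 2, 102651300 to 102741822), was 21.2, 15.2, 13.1 and 23.4 CPM in unchallenged engrafted cells and 279, 193, 212 and 135 CPM after LPS. Host microglia held 5.86, 7.77, 3.99 and 4.08 CPM without LPS and 20.6, 17.9, 14.5 and 12.5 CPM with it, so each group stood apart from the next within a population. Engrafted cells were higher without LPS (log2 fold change 1.81, SE 0.38, adjusted p = 6.36e-04) and after it (log2 fold change 3.65, SE 0.25, adjusted p = 6.79e-09). LPS raised Cd44 by 3.44 log2 units, SE 0.25, adjusted p = 1.97e-09 in engrafted cells and by 1.60 log2 units, SE 0.36, adjusted p = 0.00113 in host microglia. The engrafted response was larger by 1.84 log2 units, SE 0.48, adjusted p = 0.0194, and without host unchallenged mouse 6 the difference was 1.61 with an adjusted p of 0.101. The monocyte list rose in the same engrafted libraries, to 897 to 1912 CPM in sum, although its member Ccr2 fell. The part of monocytes in the Cd44 values was not tested.

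F11r, which encodes the junctional adhesion molecule JAM-A (chromosome 1, 173367692 to 173394724), was 329, 327, 383 and 374 CPM in unchallenged engrafted cells and 81.7, 102, 111 and 202 CPM after LPS. Host microglia held 407, 509, 494 and 436 and 197, 256, 211 and 248 CPM. LPS lowered it in engrafted cells (log2 fold change -1.59, SE 0.24, adjusted p = 2.28e-05) and in host microglia (log2 fold change -1.03, SE 0.14, adjusted p = 6.21e-06). Engrafted cells were lower than host microglia after LPS (log2 fold change -0.89, SE 0.25, adjusted p = 0.0187), which was lost without engrafted mouse 1, 2 or 3 (adjusted p 0.0603 to 0.084). Without LPS the difference was -0.33 log2 units, SE 0.12, adjusted p = 0.049, and leaving out engrafted mouse 5, 6 or 7 or host mouse 6 or 7 raised the adjusted p to between 0.0595 and 0.169. That call was also lost with RLE factors (adjusted p = 0.0510) and with all 16 libraries in 1 fit (adjusted p = 0.251).

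Cadm1 encodes a homophilic adhesion molecule of the immunoglobulin family (chromosome 9, 47338253 to 47661474). Among the tested genes of the main set, without the further list below, it fell the most with LPS in both populations. It went from 121, 62.4, 125 and 75.6 to 25.7, 20.7, 26.0 and 14.0 CPM in engrafted cells and from 142, 158, 169.9 and 144 to 43.6, 53.8, 38.6 and 39.0 CPM in host microglia, without overlap in either. The changes were -2.14 log2 units, SE 0.27, adjusted p = 3.12e-06 and -1.81 log2 units, SE 0.17, adjusted p = 2.54e-08. Engrafted cells were also lower than host microglia without LPS (log2 fold change -0.60, SE 0.17, adjusted p = 0.00814) and after it (log2 fold change -0.94, SE 0.25, adjusted p = 0.0131).

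Pecam1, the homophilic receptor CD31 (chromosome 11, 106515527 to 106576595), was 3.02, 3.37, 0 and 0 CPM in unchallenged engrafted cells, at most 3 reads in any library, and 26.8, 28.1, 13.01 and 22.4 CPM after LPS. Host microglia held 10.2, 17.5, 12.0 and 20.4 and 6.88, 7.98, 16.9 and 13.9 CPM. All challenged engrafted libraries lay above the unchallenged ones, and the mean was at least 4.91-fold higher when the floor of 3 reads per library is taken for the unchallenged group (exact permutation test, 2-sided, p = 0.0286). Unchallenged host microglia were at least 3.27-fold above engrafted cells (exact permutation test, 2-sided, not paired by mouse, p = 0.0286). The host change with LPS was -0.45 log2 units, SE 0.35, adjusted p = 0.325, and the responses differed by 3.94 log2 units, SE 0.71, adjusted p = 7.19e-04. On leaving out 1 library that difference ranged from 3.64 to 4.54, the largest without engrafted unchallenged mouse 5. Its fitted size depends on the prior count because 1 group is at the floor. After LPS the populations did not differ past the threshold (1.03 log2 units, SE 0.36, adjusted p = 0.0595), and did so without mouse 3 of the graft or of the host (adjusted p = 0.0258 and 0.0422) or with no filter for low counts (adjusted p = 0.0423). In challenged engrafted cells endothelial markers summed to 1.22 to 7.81 CPM, with Tek at 0, the platelet list to 89.7 to 232 CPM and the monocyte list to 897 to 1912 CPM, and their part in the Pecam1 values was not tested. Alcam, the ligand of CD6, was tested in no comparison, with group means from 0.96 to 6.12 CPM.

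Among the linkers, Ezr and Msn encode ezrin and moesin, ERM proteins that tie CD44 and other membrane proteins to actin. Ezr (chromosome 17, 6942480 to 6987129) was 40.3, 37.1, 27.9 and 48.6 CPM in unchallenged engrafted cells and 299.8, 205, 168 and 202 CPM after LPS. Host microglia held 8.78, 10.7, 3.99 and 7.15 and 10.3, 25.9, 12.1 and 33.4 CPM. Every engrafted library exceeded every host library of the same state (2.41 log2 units, SE 0.33, adjusted p = 2.03e-06 without LPS and 3.45 log2 units, SE 0.30, adjusted p = 1.53e-07 after it). LPS raised Ezr in engrafted cells (log2 fold change 2.47, SE 0.22, adjusted p = 4.30e-08) and in host microglia (log2 fold change 1.42, SE 0.40, adjusted p = 0.00748), and the difference of responses did not pass (1.04 log2 units, SE 0.50, adjusted p = 0.245).

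Msn (chromosome X, 93291384 to 93363892) was 88.6, 80.9, 67.2 and 68.4 CPM in unchallenged engrafted cells and 232, 228, 185 and 210.3 CPM after LPS. Host microglia held 83.4, 130.1, 136 and 104 and 233, 181, 209 and 143 CPM. LPS raised it in both populations (1.44 log2 units, SE 0.18, adjusted p = 2.38e-06 in engrafted cells, 0.73 log2 units, SE 0.18, adjusted p = 0.00215 in host microglia), and the challenged populations overlapped. Unchallenged engrafted cells were lower than host microglia (log2 fold change -0.52, SE 0.16, adjusted p = 0.0172), a call lost without host mouse 6 or 7 or engrafted mouse 7 or 8 (adjusted p 0.0523 to 0.0804).

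Fermt3 encodes kindlin-3, the kindlin of blood cells. Its means were 298 ± 58.6 and 485 ± 58.6 CPM in engrafted cells without and with LPS, and 438 ± 52.7 and 523 ± 132 CPM in host microglia. LPS raised it in engrafted cells (log2 fold change 0.66, SE 0.19, adjusted p = 0.00927) and unchallenged engrafted cells were lower than host microglia (log2 fold change -0.50, SE 0.14, adjusted p = 0.01). Both calls were lost without engrafted mouse 6 (adjusted p = 0.0522 and 0.0558), and the latter also with all 16 libraries in 1 fit (adjusted p = 0.0580). The host LPS change of Fermt3 was 0.24 log2 units, SE 0.17, adjusted p = 0.283. Its difference from the engrafted change did not pass (0.41 log2 units, SE 0.27, adjusted p = 0.436). Tln1, talin-1, did not pass any of the 5 comparisons. Its means were 444 ± 18.4 and 579 ± 57.3 CPM in engrafted cells and 537 ± 37.8 and 713 ± 159 CPM in host microglia, and its LPS changes were 0.34 log2 units, SE 0.17, adjusted p = 0.11 and 0.40 log2 units, SE 0.16, adjusted p = 0.0548. The former passed with DESeq2 (adjusted p = 0.0442) and the latter with RLE factors (adjusted p = 0.0493), with no filter for low counts (adjusted p = 0.0339) or without host LPS mouse 2 (adjusted p = 0.00195). Vcl, vinculin, was between 4.56 and 8.25 CPM in the group means, with overlapping libraries, and was not tested across genes.

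Of the adhesion G protein-coupled receptors, Adgre5 encodes CD97, a leukocyte receptor for CD55 (chromosome 8, 86247150 to 86265210). It was 22.2, 35.4, 47.5 and 61.2 CPM in unchallenged engrafted cells and 492, 390.4, 260.2 and 336 CPM after LPS. Host microglia held 4.39, 0.97, 2.39 and 2.04 and 3.44, 2.99, 2.41 and 4.17 CPM, no more than 3 reads in any library. Against that floor engrafted cells were at least 13.03-fold higher without LPS and at least 104-fold higher after it (adjusted p = 5.33e-08 and 2.34e-10). LPS raised it in engrafted cells (log2 fold change 3.16, SE 0.27, adjusted p = 1.68e-08). The fitted difference of responses was 2.71 log2 units, SE 0.80, adjusted p = 0.0415; its size depends on the prior count, and the call was lost on leaving out any 1 of 9 libraries (engrafted mice 1, 2 and 6, host mice 1, 2, 3, 5, 7 and 8; adjusted p 0.0542 to 0.134). Of the monocyte list, 4 markers rose in the same challenged engrafted libraries, among them Plac8 from 30.2, 10.1, 22.9 and 19.8 to 629.7, 396, 392 and 202 CPM. Ccr2 of that list fell, from 84.6, 189, 121 and 227 to 40.3, 31.7, 62.5 and 50.5 CPM. The part of monocytes in the Adgre5 values was not tested.

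Adgre1 encodes F4/80, a macrophage marker of the same family (chromosome 17, 57498109 to 57622952) and, unlike Adgre5, fell with LPS in engrafted cells. These cells held 658, 573, 546 and 549 CPM without LPS and 356, 340.4, 307 and 294 CPM with it. Host microglia held 239, 268, 299 and 283 and 231, 337, 157 and 125 CPM. Unchallenged engrafted cells were higher than host microglia without overlap (log2 fold change 1.15, SE 0.12, adjusted p = 4.39e-08) and LPS lowered the gene in engrafted cells (log2 fold change -0.88, SE 0.17, adjusted p = 3.62e-04). The host LPS change was -0.36 log2 units, SE 0.21, adjusted p = 0.18. Both responses did not differ past the threshold (-0.52 log2 units, SE 0.29, adjusted p = 0.335). After LPS host mouse 2 reached the engrafted range, and the difference was 0.63 log2 units, SE 0.25, adjusted p = 0.0997; with the mouse as a block it passed (0.71, SE 0.20, adjusted p = 0.0175), as it did without host mouse 2 (0.94, adjusted p = 0.00708), with no filter for low counts (0.62, adjusted p = 0.0411) and with all 16 libraries in 1 fit (0.62, adjusted p = 0.0301).

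Thbs1, thrombospondin-1, a secreted matrix protein that binds CD47 (chromosome 2, 117937612 to 117952869), was 13.1, 8.43, 9.83 and 5.399 CPM in unchallenged engrafted cells and 41.4, 53.7, 39.0 and 58.9 CPM after LPS. Host microglia held 4.39, 1.94, 4.79 and 2.04 and 0, 1.99, 6.04 and 5.56 CPM. LPS raised it in engrafted cells (log2 fold change 2.23, SE 0.32, adjusted p = 1.60e-05), and challenged engrafted cells exceeded host microglia (log2 fold change 3.83, SE 0.44, adjusted p = 4.69e-06). The engrafted libraries were also above host ones without LPS (exact permutation test, 2-sided, not paired by mouse, p = 0.0286). That separation rests on counts near the floor. The lowest engrafted library, mouse 8, held 3 reads, and the highest host library, mouse 7, held 6 reads at a greater depth. The difference of responses did not pass (2.26 log2 units, SE 0.76, adjusted p = 0.0781), and did with DESeq2 (2.33, adjusted p = 0.0393).

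Sdc4 encodes syndecan-4, a heparan sulfate proteoglycan of focal adhesions (chromosome 2, 164249747 to 164268688). Among those of the 31 adhesion genes that were tested, it rose the most with LPS in both populations. It went from 8.78, 7.77, 7.98 and 8.17 to 177, 128, 124 and 76.5 CPM in host microglia and from 44.3, 23.6, 27.9 and 30.6 to 483, 743, 375 and 325 CPM in engrafted cells. The 4 groups did not overlap. The LPS changes were 3.94 log2 units, SE 0.28, adjusted p = 3.39e-10 in host microglia and 3.85 log2 units, SE 0.27, adjusted p = 1.43e-09 in engrafted cells, and engrafted cells stood above host microglia before (2.04 log2 units, SE 0.31, adjusted p = 1.35e-05) and after LPS (1.95 log2 units, SE 0.27, adjusted p = 4.29e-05). The responses differed by -0.09 log2 units (SE 0.36). Sdc3, syndecan-3, was higher in engrafted cells after LPS, 192 ± 9.21 against 120.1 ± 28.6 CPM (log2 fold change 0.70, SE 0.19, adjusted p = 0.0175), a call lost without host mouse 1 or 2 (adjusted p = 0.0807 and 0.0531) and with library totals (adjusted p = 0.0704).

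CD47 is a surface signal that restrains phagocytes through SIRPA, and its gene and that of its receptor moved in opposite directions under LPS. Cd47 (chromosome 16, 49855767 to 49911796) went from 219.6, 206, 169 and 193 to 842, 769.8, 580.3 and 650.4 CPM in engrafted cells and from 182, 196, 219 and 150.1 to 422, 486, 374 and 277 CPM in host microglia. Sirpa (chromosome 2, 129418905 to 129457964) went from 573, 575, 662 and 529 to 227, 201, 221 and 233 CPM and from 921, 1086, 1007 and 879 to 235, 287, 363 and 302 CPM. In both populations no challenged library of either gene overlapped an unchallenged one. LPS raised Cd47 by 1.81 log2 units, SE 0.19, adjusted p = 2.26e-07 in engrafted cells and 1.05 log2 units, SE 0.17, adjusted p = 3.75e-05 in host microglia. Sirpa fell in both (-1.45 log2 units, SE 0.17, adjusted p = 1.95e-06 and -1.73 log2 units, SE 0.15, adjusted p = 1.20e-08). Sirpa was lower in unchallenged engrafted cells than in host microglia (log2 fold change -0.68, SE 0.12, adjusted p = 5.23e-05), and Cd47 was higher in challenged engrafted cells (log2 fold change 0.89, SE 0.21, adjusted p = 0.00519). The Cd47 responses differed by 0.76 log2 units, SE 0.25, adjusted p = 0.0792, which passed with the mouse as a block (0.76, adjusted p = 0.0381) and with DESeq2 (0.79, adjusted p = 0.0307), and the Sirpa responses by 0.27 log2 units, SE 0.22, adjusted p = 0.567.

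**Figure D3:**
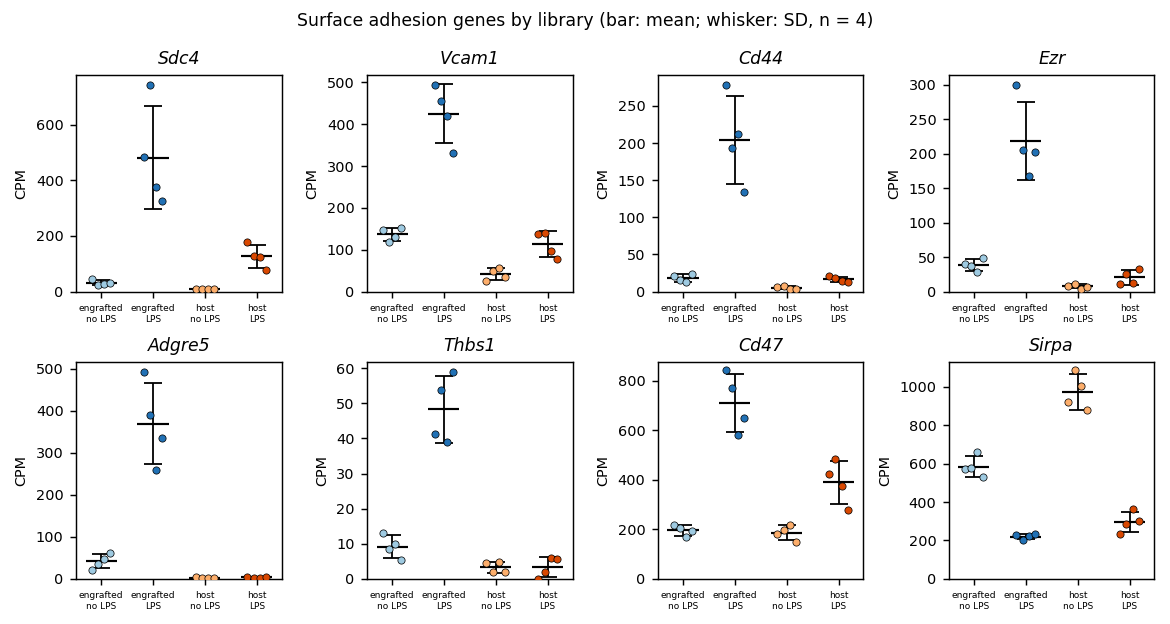
CPM (linear axis from 0) of 8 surface, linker and matrix genes in each of the 16 libraries, 4 per group, with the mean and SD. Sdc4, Vcam1, Cd44, Ezr and Cd47 were higher after LPS in both populations, Adgre5 and Thbs1 in engrafted cells, and Sirpa was lower after LPS in both.

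Side by side, 21 of the genes were tested for LPS in both populations, whose libraries differ but come from the same mice. Of them, 8 rose in both (Itgam, Itgb2, Vcam1, Cd44, Ezr, Msn, Sdc4, Cd47), 5 fell in both (Itga6, Itgb5, F11r, Cadm1, Sirpa) and 0 passed in opposite directions. Of all 7286 genes tested in both, 11.2% rose in both, 12.4% fell in both and 0.604% passed in opposite directions. Past 2-fold in both were Sdc4, Cd44, Ezr, Vcam1 and Cd47 upward and Itga6, F11r, Cadm1 and Sirpa downward. The test of the difference itself passed for Itgam and Cd44 among these 21, and for Pecam1 and Adgre5 outside them.

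**Figure D4:**
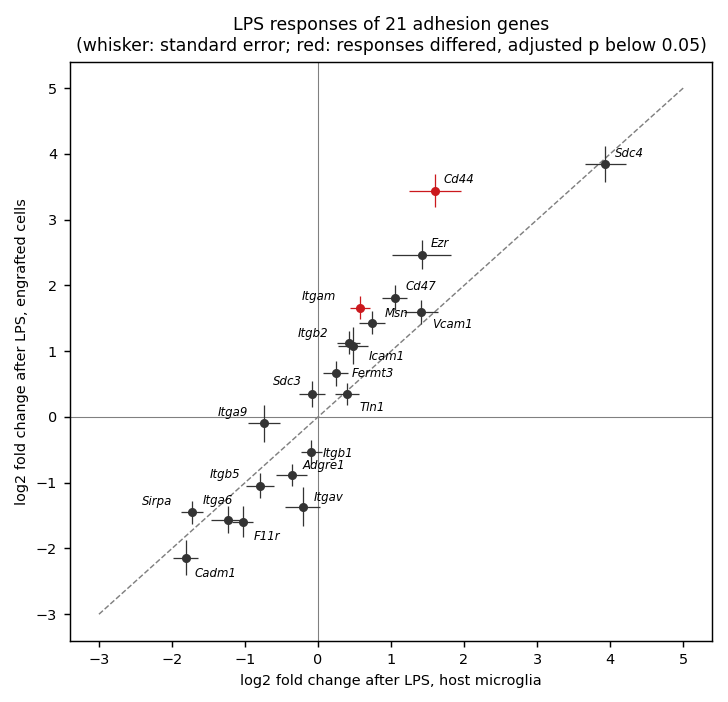
Log2 fold change after LPS in host microglia (x axis) and in engrafted cells (y axis) for the 21 adhesion genes tested in both, with standard errors, the line of equal response dashed. Cd44 (1.60 and 3.44) and Itgam (0.57 and 1.66), in red, lie above the line with a difference that passed, and Sdc4 (3.94 and 3.85) lies close to it.

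The promoters of the 3 main-set genes with the largest rises past 2-fold under LPS in both populations are shown, since these members rose together. They are the 250 bases before the RefSeq start in GRCm38.p6, minus strand, read 5′ to 3′ (Sdc4 chr2:164443189-164443438, Cd44 chr2:102901666-102901915, Ezr chr17:6782781-6783030), and capitals mark matches to the motifs named next:
Sdc4: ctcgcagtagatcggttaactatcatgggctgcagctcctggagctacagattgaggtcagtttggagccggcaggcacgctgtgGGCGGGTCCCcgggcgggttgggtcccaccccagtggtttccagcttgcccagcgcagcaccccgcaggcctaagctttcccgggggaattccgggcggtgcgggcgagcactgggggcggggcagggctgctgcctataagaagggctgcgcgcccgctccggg
Cd44: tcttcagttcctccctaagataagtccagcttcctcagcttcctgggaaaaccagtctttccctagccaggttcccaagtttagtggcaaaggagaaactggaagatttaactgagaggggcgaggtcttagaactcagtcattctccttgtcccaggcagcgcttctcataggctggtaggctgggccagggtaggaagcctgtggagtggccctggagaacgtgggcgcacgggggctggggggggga
Ezr: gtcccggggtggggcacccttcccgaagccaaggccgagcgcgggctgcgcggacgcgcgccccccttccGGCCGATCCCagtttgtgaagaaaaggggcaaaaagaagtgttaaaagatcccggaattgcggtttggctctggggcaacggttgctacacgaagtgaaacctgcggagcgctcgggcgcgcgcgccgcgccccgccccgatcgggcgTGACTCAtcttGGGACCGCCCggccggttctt
Letters were searched on both strands. For NF-kappaB they were GGGA and CC with 4 bases of any kind between them (the loose form), GGGA and TTCC with 2 between, GGG and TTTCC with 2 between, and TGGAAA followed at once by TTCC, of which the loose form includes the second. For AP-1 they were TGANTCA, for IRF factors GAAA 2 times with 2 bases between, and for PU.1 AGAGGAAGT. RefSeq windows of 250 bases before to 50 after the start were matched for 20 of the 31 genes. The Sdc4 window held the loose NF-kappaB form 1 time, the Ezr window held it at 2 places and an AP-1 match 26 to 32 bases before the start, and the Cd44 window held none of these letters. The searched forms do not cover all NF-kappaB sites. The stretch ggggaattcc in the Sdc4 window matches none of them and is left unmarked. The loose form occurred in 5 of the 20 genes (Ezr, F11r, Itgb5, Sdc4, Vcl) and in 20.7% of all 32851 windows, and F11r and Itgb5 fell with LPS. AP-1 letters occurred in 3 (Ezr, F11r, Itga9) against 7.81% of all windows, and IRF letters in none against 3.44%. TGGAAA followed by TTCC was found in Icam1 alone among them, 154 to 145 bases before the start, and in 0.0822% of all windows. AGAGGAAGT was found in Itgav alone, with 1.0% of all windows holding it. The forms with TTTCC and TTCC were in none, against 1.63 and 1.47%.

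A further list of 95 adhesion genes, also chosen with earlier results of these data known, was counted in the same fits. Without LPS 11 were higher and 22 lower in engrafted cells of 50 tested (13.6 and 13.7% of all genes), and after LPS 14 and 7 of 51 (9.52 and 7.62% of all genes). LPS raised 25 and lowered 10 of 51 in engrafted cells (19.4 and 19.3% of all genes), and raised 14 and lowered 17 of 49 in host microglia (19.2 and 20.5%). The responses differed for 10 of 55, 7 upward and 3 downward (2.97 and 2.90% of all genes). The largest of these differences was that of Lgals3, galectin-3, at 161 ± 64.9 and 1235 ± 382 CPM in engrafted cells and 21.7 ± 6.04 and 26.2 ± 9.67 CPM in host microglia (log2 fold change 2.65, SE 0.43, adjusted p = 2.05e-04). Cd93, a C-type lectin-like receptor, was 118 ± 8.36 CPM in unchallenged engrafted cells and at most 2 reads in a host library (at least 37.0-fold). The junctional molecules Jam2 and Jam3 were lower in unchallenged engrafted cells, Jam2 at 2.79 ± 2.17 against 45.1 ± 10.98 CPM and Jam3 at 1.32 ± 1.71 against 17.0 ± 2.27. Selplg, the P-selectin ligand, was 1044 ± 128 CPM in unchallenged engrafted cells and 7283 ± 643 in host microglia, where it was 3069.8 ± 709.7 after LPS.

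With LPS, Vcan (versican) rose in engrafted cells, at least 5.38-fold from at most 2 reads per library. Spp1, osteopontin, rose from 49.0 ± 21.9 to 1023 ± 303 CPM in engrafted cells and from 12.5 ± 2.77 to 133 ± 71.3 CPM in host microglia. The kinase gene Fgr and the urokinase receptor gene Plaur also rose in both, by 4.31 and 4.18 on the log2 scale in engrafted cells and 3.42 and 3.34 in host microglia. Talin-2 (Tln2) fell in host microglia from 75.7 ± 9.04 to 6.58 ± 4.13 CPM (log2 fold change -3.53, SE 0.29, adjusted p = 3.43e-09), and was 38.1 ± 5.73 and 2.59 ± 1.91 CPM in engrafted cells without and with LPS. In host microglia Srgn, serglycin, rose from 282 ± 30.8 to 2712 ± 429.8 CPM, and it was 352 ± 79.8 and 3468 ± 718 CPM in engrafted cells. Rasgrp2, an activator of the integrin regulator Rap1, was at least 13.9-fold higher in challenged engrafted cells than in host microglia. Of the remaining named differences in response, that of Rasgrp3 was downward (log2 fold change -1.27, SE 0.31, adjusted p = 0.0135), and Ninj1 (ninjurin-1) and Adgrg1 (GPR56) had upward ones of 1.196 and 1.16. Adgrg1 was 684 ± 35.2 and 106 ± 19.2 CPM in host microglia without and with LPS and 106 ± 23.0 and 37.8 ± 13.7 CPM in engrafted cells.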

How the data were processed

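The authors mapped reads of MARS-seq derived libraries with hisat (per the labels' processing notes HISAT 0.1.5) to the mm9 genome (NCBI37), used reads mapped at 1 place only, and deposited raw counts on the exons of each gene, sense strand, from HOMER. No removal of PCR duplicates is stated, so floors cover counting error only. The 31 genes and the lists were chosen with earlier results of these data known. Counts of all 24411 genes were fitted in R 4.3.3 with edgeR 4.0.16 (filter minimum count 10, minimum total 15, TMM, quasi-likelihood test, Benjamini-Hochberg adjustment, prior count 0.125), and the SE follows from the fold change and its F. Groups of the comparison entered each fit, and all 16 libraries the difference of responses. Members below the filter were compared by exact permutation of libraries taken as independent. Between graft and host these p-values ignore that both libraries of a mouse share a brain. Values per library are given for members past 2-fold. Other adhesion genes are named when past 2-fold, at most 5 a comparison, and 1 such gene is not reported here. The tests were tried on simulated counts with 1 dispersion for all genes and changes planted in well-covered genes only. Of 200 planted changes, 183 to 200 were found per comparison, with 5 to 14 false calls. Genes near the floor and the uneven noise of the real libraries were not covered by that trial. Replicate libraries differed by 2.07 to 10.1 times counting noise (chi-square per degree of freedom). Graft and host libraries of 1 mouse correlated, after removal of group means, at r between -0.03 and 0.21, and both come from 1 brain per the labels, so the mouse was used as a block in an alternative fit. Further alternatives were RLE factors, library totals, DESeq2 1.42.0, 2 other filters, 1 fit of all libraries and each library left out.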

Additional observations from a re-analysis of the deposited data

Results flagged for a closer look

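In 4 groups of 4 libraries, 1 library stood apart from the other 3 by Dixon's criterion, out of 124 combinations of gene and group, where chance gives about 1 in 20. Itga4 was 5.98 CPM in challenged host mouse 2 against 2.29 to 2.78 in the other three. Itga5 was 2.04 CPM in unchallenged host mouse 8 against 4.39 to 4.86. Tln1 was 664 CPM in challenged engrafted mouse 1 against 547 to 556, and Fermt3 was 572 CPM in challenged engrafted mouse 4 against 450 to 468 CPM.

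The LPS response of engrafted cells exceeded that of host microglia for 4 genes by the test of the difference itself (edgeR's quasi-likelihood test, Benjamini-Hochberg adjustment). The log2 differences were 1.08 for Itgam (adjusted p = 0.00159), 1.84 for Cd44 (adjusted p = 0.0194), 3.94 for Pecam1 (adjusted p = 7.19e-04) and 2.71 for Adgre5 (adjusted p = 0.0415). The fitted sizes for Pecam1 and Adgre5 rest on groups with at most 3 reads per library.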

How the results depend on the processing

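Of 74 passing pairs of gene and comparison, 0 reversed under any alternative, 62 passed under every one that gave a value, 6 were lost under an alternative fit and 6 only on leaving out a library. A demand for 10 reads in every library left 3 genes higher in engrafted cells without LPS, 4 higher and 2 lower after LPS, 4 raised by LPS in host microglia and 1 larger engrafted response, with fewer genes tested. Without a filter 13 genes rose in host microglia. DESeq2 gave 7 larger engrafted responses. With the mouse as a replicate block 1 response was smaller in engrafted cells (Itgav), Adgre1 after LPS and the Cd47 difference passed, and no other call changed. On leaving out a library, engrafted against host gave 7 to 9 higher and 8 to 11 lower without LPS, and 10 to 12 and 3 to 5 after it. LPS raised 14 to 17 and lowered 7 to 8 in engrafted cells, raised 7 to 10 and lowered 6 to 7 in host microglia, and the responses differed for 3 to 6 up and 0 to 1 down. The differences of response for Vcam1 (-0.0033 to 0.34) and Sdc4 (-0.35 to 0.16), which had not passed, changed sign there. In the shallowest library, at 395283 reads, the floor of 3 reads was 8.41 CPM, and levels under it were not resolved there. Floors of the other libraries were lower, down to 2.39 CPM.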
